A study of Mus musculus with 6 samples.

Results

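The 6 genes described here are transcription factors of upper-layer and callosal cortical neurons. They are Cux1 and Cux2 of the CUT family, Pou3f1, Pou3f2 and Pou3f3 of the class III POU family, and Mef2c of the MEF2 family. They were taken by gene symbol from a table of 24972 genes, and all 6 were present. RNA came from the cortex of mice at postnatal stage P7, in 3 libraries labelled wildtype, with the genotype Zmiz1f/f, and 3 labelled Zmiz1-KO, called KO-labelled here, with the genotype Zmiz1f/f;Emx1-Cre. Both groups thus carried the floxed Zmiz1 alleles, no other treatment was named, and only the KO-labelled libraries carried Cre, so that the presence of Cre and the deletion of Zmiz1 cannot be told apart. Emx1-Cre is active in the dorsal progenitors that give rise to the glutamatergic neurons, the astrocytes and part of the oligodendrocytes of the cortex, whereas cortical interneurons arise from ventral progenitors outside its domain. Whether a library held RNA from a single mouse was not stated. If the libraries of a group were not separate animals, the p values measure a spread that may be technical.

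The neurons of cortical layers II to IV are born late. Many of those in layers II and III send an axon through the corpus callosum to the other hemisphere. CUX1 and CUX2, which bind DNA with CUT repeats and a homeodomain, mark these layers and shape dendritic branches and spines. POU3F2 and POU3F3, also known as BRN2 and BRN1, act in the birth and migration of upper-layer neurons, and POU3F1, also known as OCT6 or SCIP, is their paralog. MEF2C is a MADS-box factor whose activity is set by calcium signals and which acts in neuronal differentiation and in the number of synapses. It is also made in interneurons, microglia and endothelial cells, so a bulk value for Mef2c sums several cell types.

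The 3 class III POU genes are single-exon genes whose coding sequences are alike over the DNA-binding domain, so a read could in principle be assigned to the wrong paralog. A window of 100 coding bases at the start of the POU-specific domain shows how far they can be told apart. The window covers coding bases 711 to 810 in Pou3f1, 768 to 867 in Pou3f2 and 909 to 1008 in Pou3f3, is given 5′ to 3′ in the coding sense from GENCODE transcripts on GRCm38, and has in capitals the 30 positions at which the 3 genes are not all the same.
Pou3f1: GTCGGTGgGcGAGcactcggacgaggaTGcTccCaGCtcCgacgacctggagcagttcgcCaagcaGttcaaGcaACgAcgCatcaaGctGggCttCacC
Pou3f2: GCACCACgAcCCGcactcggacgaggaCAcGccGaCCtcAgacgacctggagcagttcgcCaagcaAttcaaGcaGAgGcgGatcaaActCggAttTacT
Pou3f3: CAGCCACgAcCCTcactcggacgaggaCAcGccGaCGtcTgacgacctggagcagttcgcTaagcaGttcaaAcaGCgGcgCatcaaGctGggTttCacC
Within this window Pou3f2 and Pou3f3 had the same base at 84% of positions, Pou3f1 and Pou3f3 at 77%, and Pou3f1 and Pou3f2 at 75%. The longest run of coding bases common to all 3 genes was 20 bases, and between pairs it was 38 bases for Pou3f1 and Pou3f2, 29 for Pou3f1 and Pou3f3 and 23 for Pou3f2 and Pou3f3. For Cux1 and Cux2 it was 23 bases. No 75-base stretch of any of the 6 genes occurred in another of the 6, so a read of that length without mismatches belongs to 1 of them.

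On GRCm38, Pou3f1 lies on chromosome 4 from 124656807 to 124660655 on the plus strand, and Pou3f2 lies on the same chromosome from 22482780 to 22488366 on the minus strand. Pou3f3 lies on chromosome 1 from 42695768 to 42703176 on the plus strand. Cux1 and Cux2 are both on the minus strand of chromosome 5, from 136248135 to 136567490 and from 121856366 to 122050102, with up to 24 and 23 exons per transcript. Mef2c spans chromosome 13 from 83504034 to 83667080 on the plus strand, with up to 12 exons. The Cux1 locus also encodes CASP, a Golgi protein that shares its first exons with CUX1, and the table has 1 value for both. An annotated antisense gene, Gm2164, holds 6.81% of the 75-base stretches of Pou3f1, and another, Gm16599, holds 1.55% of those of Cux1. The library kit does not mark strand, so reads of these parts cannot be told apart from the antisense genes, neither of which has a row in the table. The other 4 genes shared no 75-base stretch with any gene.

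The sequences just upstream of 3 of the genes are given next, because the founding member of the CUX family was described as a protein that displaces a factor from the CCAAT box. RefSeq promoter windows on GRCm38.p6 were held for 5 of the 6 genes, that is, all but Pou3f1, and the first 250 bases, those before the transcription start, were searched on both strands for CCAAT. The windows printed lie outside the annotated exons of the gene itself and run 5′ to 3′ on its strand. Overlap with exons of other genes was not checked. Capitals mark CCAAT or, where the box is on the opposite strand, ATTGG. The windows are chr1:42695518-42695767 for Pou3f3, chr4:22488367-22488616 for Pou3f2 and chr13:83503784-83504033 for the first start of Mef2c.
Pou3f3: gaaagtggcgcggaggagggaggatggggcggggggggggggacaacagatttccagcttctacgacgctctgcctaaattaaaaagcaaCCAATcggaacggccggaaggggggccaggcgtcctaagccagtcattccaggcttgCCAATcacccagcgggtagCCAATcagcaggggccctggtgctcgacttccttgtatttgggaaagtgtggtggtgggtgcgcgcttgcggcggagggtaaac
Pou3f2: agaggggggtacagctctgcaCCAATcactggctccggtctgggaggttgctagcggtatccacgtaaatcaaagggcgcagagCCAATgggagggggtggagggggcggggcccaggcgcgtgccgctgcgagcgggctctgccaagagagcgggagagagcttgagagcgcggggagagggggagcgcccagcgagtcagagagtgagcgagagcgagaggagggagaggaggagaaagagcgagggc
Mef2c: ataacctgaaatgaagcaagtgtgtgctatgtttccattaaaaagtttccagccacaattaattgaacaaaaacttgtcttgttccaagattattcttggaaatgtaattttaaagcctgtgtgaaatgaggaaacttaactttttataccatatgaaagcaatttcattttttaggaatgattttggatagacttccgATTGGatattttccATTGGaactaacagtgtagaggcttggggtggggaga
Pou3f3 held 3 CCAAT boxes, 160, 103 and 84 bases before the start. Pou3f2 held 2, 229 and 166 bases before it, and the first Mef2c start held 2, at 51 and 37 bases. Over 32851 mouse promoter windows of the same length, 33.8% held at least 1 CCAAT, 10.1% at least 2 and 2.79% at least 3. A more internal Mef2c start held 1 box, 83 bases before it, and another Mef2c start, both Cux2 starts and the Cux1 start held none. These are matches of letters, chosen for printing after the windows were seen, and no binding was measured. Another 4 motifs were searched in the same windows. ATCGAT, a letter string bound by CUT proteins, occurred once, before the more internal Cux2 start (0.728% of all windows), and ATCAAT once, before that internal Mef2c start (6.72%). The octamer ATGCAAAT (1.60% of all windows) and the MEF2 palindrome of CTA and TAG separated by 4 bases (3.20%) occurred in none of them.

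The values are the authors' normalized counts, which are meant to put the libraries on a common scale. They summed to between 32661979 and 33239707 per library, and the smallest value of any of the 6 genes was 1307. Zmiz1 itself went against the label: its wildtype mean was 7836 ± 339 normalized counts (SD, n = 3) and its KO-labelled mean 9794 ± 143, with a log2 fold change of 0.32 (SE 0.040, limma adjusted p = 0.00125). The table has no values per exon, so a transcript without the floxed exons cannot be told apart from the full one, and the groups are named by their labels throughout. Emx1, after which the Cre line is named, had 763 ± 67.6 normalized counts in wildtype and 529 ± 55.1 in the KO-labelled libraries (log2 fold change -0.53, SE 0.090, limma adjusted p = 0.0150). Markers of the cell types that the dissection could hold were summed per library. Those of glutamatergic neurons, the defining cells of this tissue, were well expressed, at 74243 to 78561 in wildtype and 74621 to 78400 in the KO-labelled libraries. Markers of choroid plexus, a tissue next to the cortex, ran from 341 to 8441 in wildtype and from 394 to 4922 in the other group.

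All 6 transcription factors had a lower mean in the KO-labelled libraries, by 4.44% for Cux1 and by 12.7 to 17.2% for the other 5. Pou3f2 alone passed the test across all genes, and Cux2 was just outside it. In 4 of the 6 genes, Cux2, Pou3f2, Pou3f3 and Mef2c, every KO-labelled library was below every wildtype library, and in Cux1 and Pou3f1 the groups overlapped. The log2 fold changes lay between -0.27 and -0.07.

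**Figure D1:**
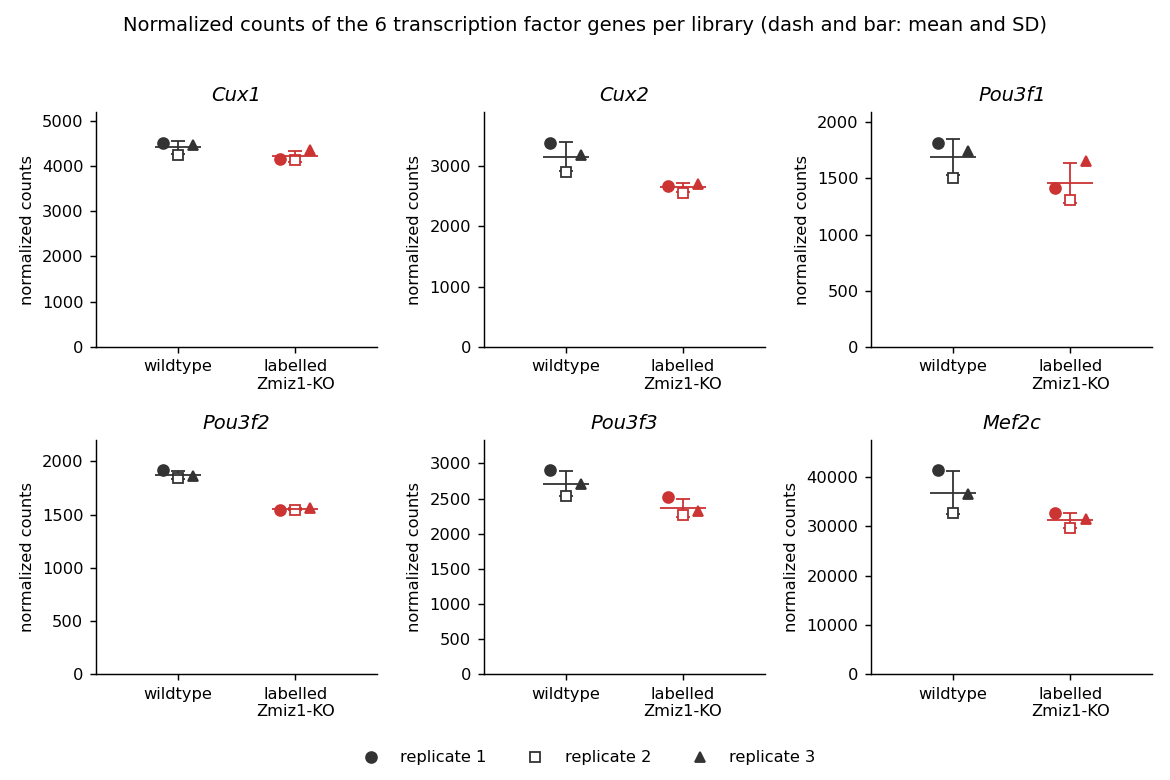
Normalized counts of the 6 genes in each library, 1 panel per gene with an axis that starts at 0; circles, open squares and triangles are replicates 1, 2 and 3 of a group, and dash and bar are the mean and SD. The groups do not overlap in Cux2, Pou3f2, Pou3f3 and Mef2c, and they overlap in Cux1 and Pou3f1.

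Cux2, the CUT factor most used as a marker of upper layers, was measured at 3388, 2907 and 3185 normalized counts in replicates 1, 2 and 3 of the wildtype, and at 2674, 2555 and 2711 in KO-labelled replicates 1, 2 and 3. The groups were separate, with a gap of 196 counts between the lowest wildtype library and the highest KO-labelled one. The mean was 3160.1 ± 242 (SD, n = 3) against 2647 ± 81.5, which is 16.2% lower, with a log2 fold change of -0.25 (SE 0.054, 95% interval -0.37 to -0.14, limma adjusted p = 0.0555, exact permutation p = 0.1). This missed the threshold of 0.05, and Cux2 stood at rank 67 of the tested genes by p, right after the 65 genes called and 1 other. Of the 6 fits that left out a library, only that without wildtype replicate 2, the lowest of its group, passed (log2 fold change -0.31, limma adjusted p = 0.0132), and without wildtype replicate 1, the highest, they were -0.20 and 0.205. With limma-voom, without robust estimation and without the trend, the adjusted p was 0.155, 0.159 and 0.469. Cux1, its broader paralog, had 4511, 4250.4 and 4471 normalized counts in wildtype and 4149, 4135 and 4361 in the KO-labelled libraries. The highest KO-labelled library was above the lowest wildtype library, so the groups overlapped. The means were 4411 ± 140.4 and 4215 ± 126, a log2 fold change of -0.07 (SE 0.043, limma adjusted p = 0.622, exact permutation p = 0.2). Its 95% interval ran from -0.16 to 0.03 and takes in 0.

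Pou3f2 had the clearest difference of the 6. Its values were 1916, 1846 and 1865 in wildtype and 1548, 1545 and 1564 in the KO-labelled libraries. Replicates were close together, with a coefficient of variation of 1.91% in wildtype and 0.676% in the other group, and the groups were 282 counts apart. The mean fell from 1876 ± 35.9 (SD, n = 3) to 1552 ± 10.5, 17.2% lower, a log2 fold change of -0.27 (SE 0.049, 95% interval -0.38 to -0.17, limma adjusted p = 0.0213, exact permutation p = 0.1, the smallest that 3 libraries against 3 can give). The call depended on how the spread was estimated. It was lost with limma-voom (adjusted p = 0.0606), without robust estimation (0.0556), without the trend of the variance with expression (0.380), and without wildtype replicate 1 (0.0871), wildtype replicate 3 (0.0575), or KO-labelled replicate 1 (0.117) or 3 (0.135), although the fold change itself stayed between -0.28 and -0.26 over the fits that left out a library.

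Pou3f3, which acts with Pou3f2 in upper-layer neurons, had 2900.3, 2536 and 2705 normalized counts in wildtype and 2515, 2272 and 2324 in the KO-labelled libraries. The groups were separate, but by only 20.6 counts. Its means were 2714 ± 182 and 2371 ± 128, 12.7% lower, a log2 fold change of -0.19 (SE 0.056, 95% interval -0.31 to -0.08, limma adjusted p = 0.185, exact permutation p = 0.1). Pou3f1 had 1817, 1508 and 1746 in wildtype and 1414, 1307 and 1660.0 in the KO-labelled libraries. KO-labelled replicate 3 lay inside the wildtype range, and the standard error on the log2 scale was the widest of the POU genes. The means were 1690.2 ± 162 and 1460.3 ± 181, a log2 fold change of -0.21 (SE 0.097, 95% interval -0.43 to 0.01, limma adjusted p = 0.476, exact permutation p = 0.2). The log2 estimate for Pou3f1 is thus as large as that for Pou3f3, with an interval that takes in 0.

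Mef2c had the highest values of the 6, also per kilobase of exon as given further on. It had 41299.7, 32654 and 36465 normalized counts in wildtype and 32605, 29651 and 31395 in the KO-labelled libraries. The lowest wildtype library exceeded the highest KO-labelled library by only 48.3 counts, and the wildtype libraries spread over a wider range than the difference between the means. The means were 36806 ± 4333 (SD, n = 3) and 31217 ± 1485, 15.2% lower, a log2 fold change of -0.23 (SE 0.094, 95% interval -0.47 to 0.00, limma adjusted p = 0.466, exact permutation p = 0.1). Without wildtype replicate 2 the log2 fold change was -0.32 and the adjusted p 0.0426, and without wildtype replicate 1, which had the highest value, they were -0.15 and 0.420.

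**Figure D2:**
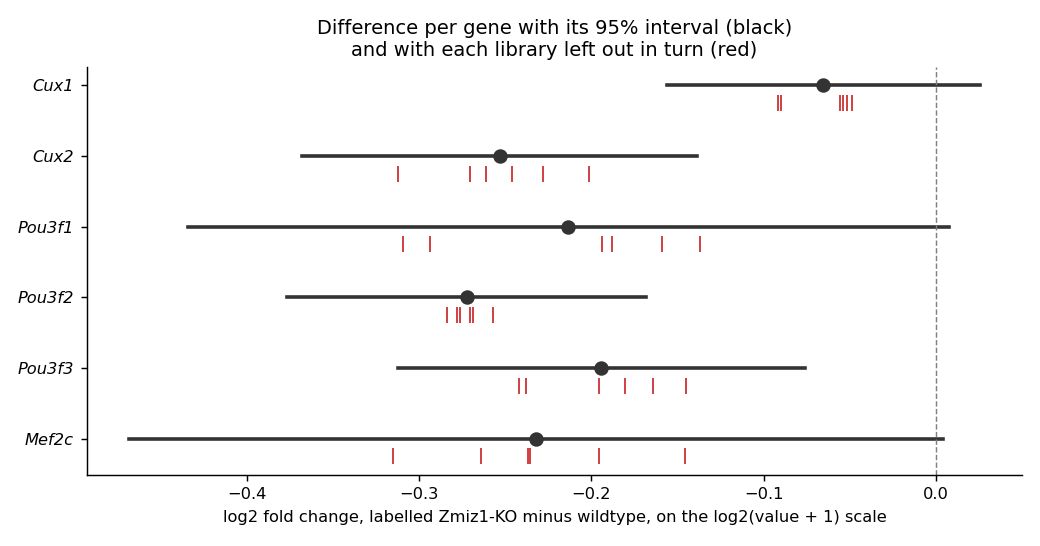
Log2 fold change of each gene, KO-labelled libraries against wildtype, with the 95% interval from limma in black and, as red ticks, the estimates with each library left out in turn. The 6 estimates lie between -0.27 and -0.07, and the intervals of Cux2, Pou3f2 and Pou3f3 lie wholly below 0.

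Read against the 15800 genes tested, 1 of the 6 genes was called at an adjusted p of 0.05, where 0.411% of all genes were called and 0.247% were called lower. At an adjusted p of 0.1 it was 2 of 6, against 0.671%. At an unadjusted p of 0.05 it was 3 of 6, all lower, against 5.84% of all genes lower and 11.0% in either direction. All 6 log2 fold changes were under 0, as were 50.1% of those of all genes. The groups were separate, with lower values in the KO-labelled libraries, in 4 of 6, against 8.16% of all genes, or 16.3% in either direction. Over the 6 genes the median log2 fold change came to -0.22, and over all tested genes to -0.000175. The 6 genes were picked with results of these data known and share libraries and cell types, so these counts describe them and are no test of the group.

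Paralogs were compared within libraries, by the log2 difference between 2 genes of a family. Gene length cancels in the change of such a difference. Cux2 minus Cux1 was -0.48 ± 0.068 (SD, n = 3) in wildtype and -0.67 ± 0.033 in the KO-labelled libraries, with no overlap between the groups. This extra difference of -0.19 gave an exact permutation p of 0.1, the smallest possible, or 0.4 adjusted over the 4 pairs compared. The ratios within the POU family moved less. The difference of Pou3f3 and Pou3f2 was 0.08 higher in the KO-labelled libraries (exact permutation p = 0.4, adjusted p = 0.8), that of Pou3f3 and Pou3f1 was 0.02 higher (p = 0.9, adjusted p = 0.9), and that of Pou3f2 and Pou3f1 was 0.06 lower (log2 change -0.06, p = 0.7, adjusted p = 0.9). With 3 libraries per group none of these could pass 0.05, so equal change of the paralogs is not shown.

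Levels of different genes were compared only per kilobase of exon. In wildtype, Mef2c stood highest at 2342 ± 276 normalized counts per kilobase (SD, n = 3), followed by Pou3f1 at 439 ± 42.1, Pou3f3 at 366 ± 24.6, Pou3f2 at 336 ± 6.43, Cux2 at 313 ± 24.0 and Cux1 at 220.3 ± 7.01. Neighbours in this order overlapped for Pou3f3 and Pou3f2 and for Pou3f2 and Cux2, and Pou3f1 and Pou3f3 touched, with 392 as the lowest library of the first and 391 as the highest of the second. In the KO-labelled libraries the order was the same, with 1986 ± 94.5 for Mef2c, 379 ± 47.0 for Pou3f1, 320.0 ± 17.3 for Pou3f3, 278 ± 1.88 for Pou3f2, 263 ± 8.08 for Cux2 and 210.5 ± 6.31 for Cux1. The order at the lower end depends on the length used. Per kilobase of the longest transcript, Cux2 and Cux1 had 360 and 343 in wildtype, above Pou3f2, whose length does not change, and Mef2c had 5864.

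**Figure D3:**
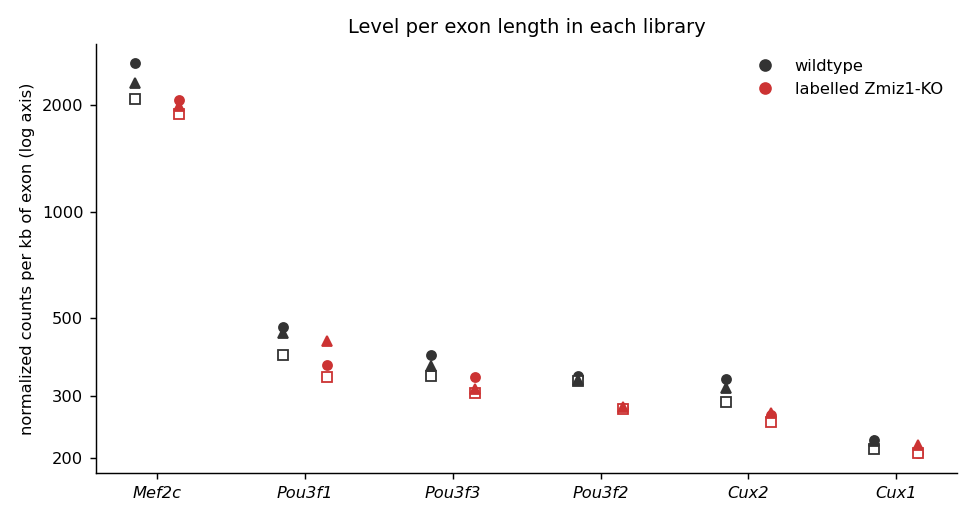
Normalized counts per kilobase of exon (union of all annotated exons, logarithmic axis) for the 6 genes; points are libraries, and shapes give the replicate number (circle 1, open square 2, triangle 3). Mef2c is at 1887 or more in every library and the other 5 genes lie between 206.5 and 472.

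The 6 genes had the same ordering of libraries in several respects. Wildtype replicate 1 had the highest value of all 6 libraries in 6 of 6 genes. Wildtype replicate 2 had the lowest wildtype value in 6 of 6, and KO-labelled replicate 2 had the lowest value of all in 6 of 6. The share of all genes with this order was not counted. Sums over all genes had the same extremes, at 33239707, 32677419 and 32661979 in these 3 libraries. Summed glutamatergic markers were also highest in wildtype replicate 1 (78561), but lowest of all in wildtype replicate 2 (74243). Summed markers of GABAergic interneurons and of striatal neurons were, in contrast, lowest in wildtype replicate 1 and highest in KO-labelled replicate 2. Wildtype replicate 2 had the highest wildtype sum for interneurons but not for striatal neurons. The summed interneuron markers were 18246 in wildtype replicate 1, 22659 in replicate 2 and 20378 in replicate 3, and 23727, 25512 and 24171 in the KO-labelled libraries, so the groups did not overlap. All 9 interneuron markers had a higher mean in the KO-labelled libraries, with a median log2 fold change of 0.27, 0 of them were called by limma, and 6 had an unadjusted p at or under 0.05. The striatal sums were 13936, 16974.5 and 17789.5 in wildtype replicates 1, 2 and 3 and 20200.4, 21342 and 18979 in the KO-labelled libraries, again without overlap, with 7 of 7 higher and a median of 0.37. Of these, Pde10a was called (log2 fold change 0.37, limma adjusted p = 0.00303). None of the interneuron or striatal markers was at 0 in all libraries. Glutamatergic marker sums, given above, overlapped between the groups. Of the 5 markers in them, 4 had a lower and 1 a higher mean in the KO-labelled libraries, and 0 were called by limma. Neurod2 was lower without overlap (log2 fold change -0.17, limma adjusted p = 0.241).

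**Figure D4:**
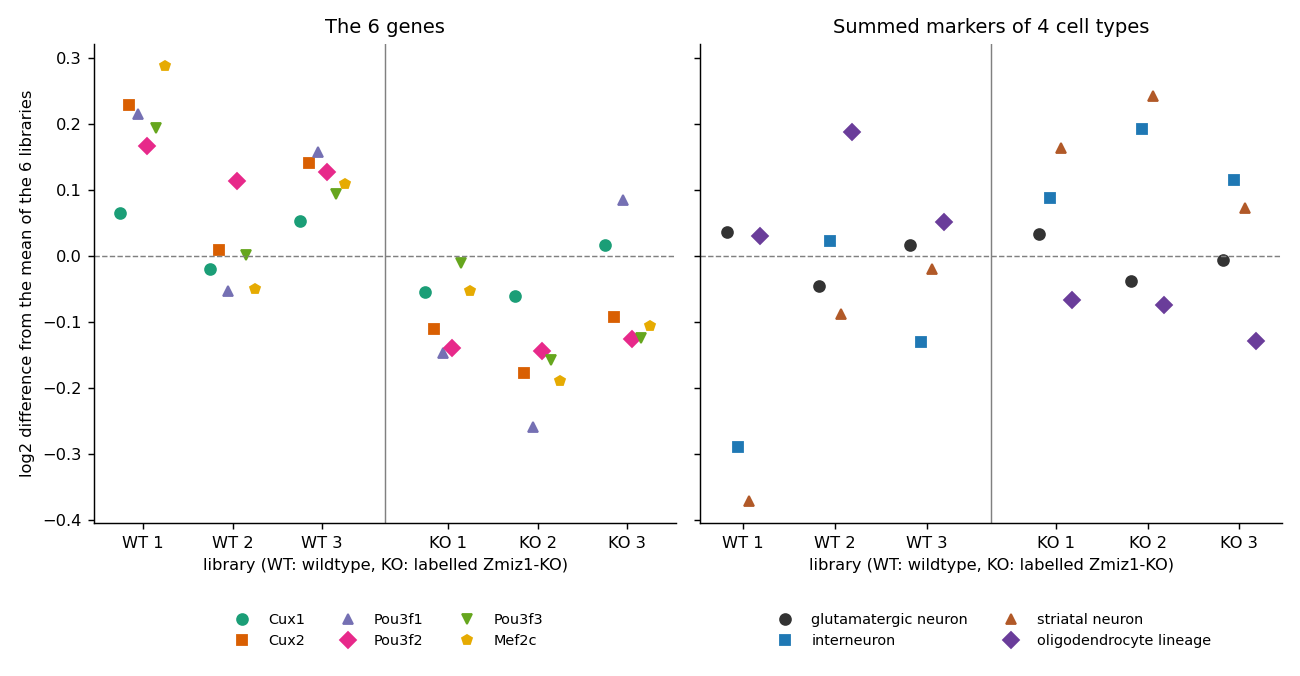
Left, log2 difference of each of the 6 genes from its own mean over the 6 libraries; right, the same for the summed markers of 4 cell types. Wildtype replicate 1 is highest for the 6 genes and lowest for interneuron and striatal markers, and KO-labelled replicate 2 is lowest for the 6 genes and highest for those markers.

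With the log2 of the summed interneuron markers as a covariate, a fit added after these values were seen, the log2 fold change was -0.23 for Pou3f2 (SE 0.083, limma adjusted p = 0.453), -0.07 for Cux2 (SE 0.072, adjusted p = 0.859) and -0.01 for Pou3f3, and it turned to 0.01 for Cux1, 0.04 for Pou3f1 and 0.06 for Mef2c. With the striatal sum in its place it was -0.23 for Pou3f2 (SE 0.085, adjusted p = 0.568), -0.12 for Cux2, -0.08 for Pou3f3, -0.02 for Mef2c, -0.01 for Cux1 and 0.00 for Pou3f1. Pou3f2 was the gene whose estimate moved least, while its error rose. Both sums differ between the groups without overlap, so what goes with the markers and what goes with the genotype label cannot be told apart in 6 libraries. Divided by the summed glutamatergic markers of the same library, the 6 genes had log2 differences of -0.27 for Pou3f2, -0.25 for Cux2, -0.23 for Mef2c, -0.21 for Pou3f1, -0.19 for Pou3f3 and -0.06 for Cux1. On that scale the groups did not overlap in Cux1, Cux2, Pou3f2, Pou3f3 and Mef2c and overlapped in Pou3f1 (exact permutation p = 0.1 and 0.2). In the limma fit of values scaled in this way, Pou3f2 had an adjusted p of 0.0707 and 0 of the 6 genes were called. In bulk RNA, fewer cells that express a gene and less of its RNA per cell cannot be told apart.

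Other genes of the 3 families had estimates on both sides of 0, and none was called in the fit of all 6 libraries. Of the other CUT-domain genes, 2 of the 4 listed were high enough to be tested. By limma 0 of them were called and 1 had an unadjusted p at or under 0.05, with a median log2 fold change of -0.16. Satb1, a chromatin organizer, had a wildtype mean of 6538 ± 569 normalized counts (SD, n = 3) and a KO-labelled mean of 5417 ± 260, without overlap (log2 fold change -0.27, limma adjusted p = 0.0932). Onecut2 had -0.04. With an Xist covariate or without wildtype replicate 3, 1 of these genes was called. Of the other POU genes 5 of 11 were tested, and 0 were called at either an adjusted or an unadjusted p of 0.05 by limma, with a median of -0.00. Pou3f4, the fourth class III gene, had 377 ± 39.9 in wildtype and 430 ± 14.3 in the KO-labelled libraries, so its estimate lay on the other side of 0 from its paralogs (log2 fold change 0.19, limma adjusted p = 0.486). Pou2f2 had 0.21 (adjusted p = 0.636), with overlap in both. Pantr1, a noncoding RNA transcribed next to Pou3f3, had 544, 638 and 716 in wildtype and 572, 522 and 500.1 in the KO-labelled libraries, with overlap (log2 fold change -0.24, limma adjusted p = 0.353). Pantr2, another noncoding RNA of the locus, was too low to test.

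Among Mef2c's relatives and the class IIa deacetylases that repress MEF2 proteins, 7 were tested. By limma 0 were called and 1 had an unadjusted p at or under 0.05, with a median log2 fold change of -0.02. Mef2a had -0.02 and Mef2d 0.00, with values of 5568 ± 258 and 6082 ± 289 in wildtype, and Mef2b, at 10.8 ± 2.28 in wildtype and 6.14 ± 5.44 in the other group, had -1.32 (limma adjusted p = 0.601). Hdac9 had -0.16 (adjusted p = 0.295). Of 8 neuronal genes that depend on MEF2, 1 was called, and it was higher: Arc, an immediate early gene of synapses, rose from 483 ± 31.8 to 639 ± 41.4 normalized counts (log2 fold change 0.40, limma adjusted p = 0.0444). This call was lost in each fit without 1 library, whichever was left out. Nr4a1, an activity-induced nuclear receptor, had 0.23 (adjusted p = 0.168), and the median of the 8 was 0.03. Of 9 partners and downstream genes of class III POU factors 0 were called by limma and 2 had an unadjusted p at or under 0.05, with a median of -0.03. Sox2, which binds DNA beside POU factors in progenitors, had 0.27 (adjusted p = 0.168), and Sox4 and Sox11, of neuronal differentiation, had -0.11 and -0.07.

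**Figure D5:**
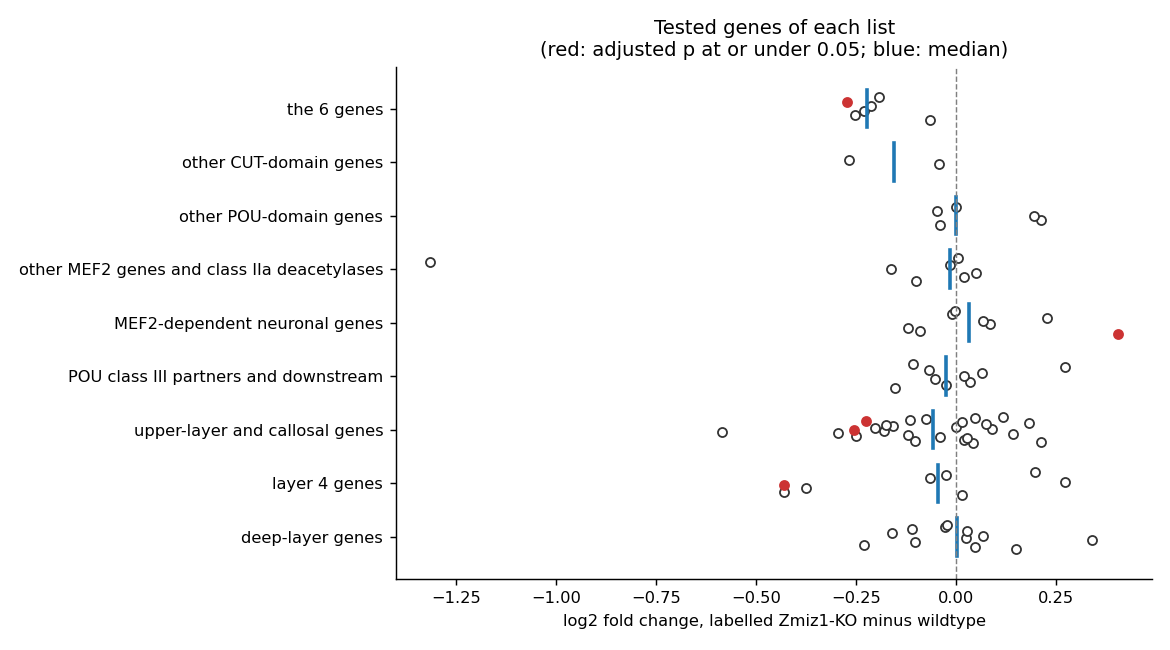
Log2 fold change of the 6 genes and of the tested genes of 8 other lists, KO-labelled libraries against wildtype; points are genes, red where called, and blue bars are medians. The 6 genes have a median of -0.22, the other lists drawn have medians between -0.16 and 0.03 (Pantr1, at -0.24, is not drawn), and the point at -1.32 is the weakly expressed Mef2b.

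The layer markers place the 6 genes in their setting. Of 26 other genes of upper layers and callosal neurons, 15 had a lower and 11 a higher mean in the KO-labelled libraries, with a median log2 fold change of -0.06. An unadjusted limma p at or under 0.05 was reached by 14 of the 26, against 11.0% of all genes. The groups were separate in 9 of the 26, 6 lower and 3 higher. Over all genes 16.3% were separate in either direction and 8.16% with lower values. The list was chosen with results of these data known, so these counts are no test of it. Of the 26 genes 2 were called, both lower. These were Ptn, which encodes the secreted growth factor pleiotrophin (-0.23, limma adjusted p = 0.0216), and Lhx2, a LIM homeodomain factor of cortical progenitors and upper layers (-0.26, adjusted p = 0.0411). The largest estimates among the rest were those of Inhba (-0.59, adjusted p = 0.121), Hspb3 (-0.30, adjusted p = 0.662) and Epha3 (-0.25). Of 8 layer IV genes 1 was called, Rorb, a nuclear receptor of layer IV identity, which fell from 1644 ± 124 to 1219 ± 97.0 normalized counts (log2 fold change -0.43, adjusted p = 0.00856). The median of this list was -0.05. Kcnh5 had -0.43, Pcdh20 -0.38 (adjusted p = 0.216) and Rspo1 0.27, and none of these passed. Ptn and Lhx2 were not called without wildtype replicate 1 or 3 or KO-labelled replicate 1 or 3, and Rorb was not called without KO-labelled replicate 3. With limma-voom, without robust estimation, without the trend or with a marker covariate, Arc, Ptn, Lhx2 and Rorb were not called, and with limma-voom no gene of the other family and layer lists was called either. Of 12 deep-layer genes 0 were called by limma and 4 had an unadjusted p at or under 0.05. Their means were lower for 6 and higher for 6, and the median was 0.00. Foxp2 had 0.34 (adjusted p = 0.362), Etv1 -0.23, Sox5 -0.16 and Bcl11b, a factor of subcerebral neurons, 0.15 (adjusted p = 0.191). The groups were separate only in Foxp2 and Bcl11b, both higher. Which cells these bulk values came from was not tested.

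Among other cells of the cortex, oligodendrocyte lineage markers summed to 16783 to 18714 in wildtype and 15015 to 15680 in the KO-labelled libraries, without overlap. Of these markers 7 of 8 were lower and 1 was called, Olig1 (log2 fold change -0.32, limma adjusted p = 0.00173). The order of libraries in the oligodendrocyte sums was not that of the 6 genes, since wildtype replicate 2 was highest. Sums of astrocyte markers (59982 to 64318 and 54237 to 61352), microglial markers (3742 to 4001 and 3700 to 3812) and endothelial markers (4852 to 5009 and 4870 to 5089) overlapped. Of the 7 astrocyte markers 5 had a lower mean and 1 was called, Aqp4, a water channel (log2 fold change -0.29, limma adjusted p = 0.00499). Microglia, endothelial cells and interneurons also make Mef2c. The microglial and endothelial sums overlapped between the groups, and the interneuron sums did not. The part of each cell type in the Mef2c values was not tested.

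Genes with a profile over the 6 libraries like that of each transcription factor were looked for among 10571 genes with a mean of at least 300. Likeness was measured as the root mean square (RMS) difference between the log2 values, each gene centred on its own mean, so a gene with little change can be near to any other such gene. For Cux2 the nearest were Bhlhe22, Npnt and Gjc1, at 0.0287, 0.0300 and 0.0335, against an RMS deviation of Cux2 from its own mean of 0.144. For Pou3f2 they were Col24a1, Luzp2 and Arl13b, at 0.0254, 0.0313 and 0.0351, against 0.137. Luzp2 was the only 1 of the 18 nearest genes that was itself called (log2 fold change -0.24, limma adjusted p = 0.0269). For Pou3f3 they were Mex3d, Cdh10 and A830036E02Rik, at 0.0267, 0.0268 and 0.0297, against 0.121. Mef2c was nearest to Ptprk, Gpr21 and Ephb6, at 0.0248, 0.0282 and 0.0401, against 0.157. Pou3f1 had no close neighbour, with Trim16, Lyn and Nkd2 at 0.0499, 0.0536 and 0.0584, against 0.168. Cux1 was near to Pfkfb2 and Hgh1, at 0.0112 and 0.0124, but it moved little itself, at 0.0490. Among the 6, Cux2 and Mef2c were the most alike, at 0.0444, and the paralogs Pou3f1 and Pou3f2 the least, at 0.122. These are descriptions over 6 libraries, which all genes share.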

How the data were processed

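Total RNA of P7 cortex was made into libraries with an Illumina TruSeq kit for unstranded libraries. A label speaks of isolating progenitor cells, whereas the extraction label and the methods give dissected cortex. The authors aligned the reads to mm10 with STAR in Illumina BaseSpace and deposited normalized counts from DESeq2, a signal with 1 column per library; the versions and the gene annotation are not given in the sources used here. Low values (20 or less) lay within 0.1 of a whole multiple of a step of 1.83 to 2.11 in 88.1 to 91.8% of cases, values over 500 in 19.8 to 20.3%, so whole reads were not recovered and a count test was not run. The sum divided by the step was 15494888 to 17858395 per library. This is only a rough estimate of counted reads, since high values were mostly not whole multiples of the step.

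Genes that reached 10 in 3 or more libraries (15800 of 24972) were fitted as log2(value + 1) in limma 3.58.1 under R 4.3.3, with intensity trend, robust estimation and Benjamini-Hochberg adjustment over all tested genes. A call is an adjusted p at or under 0.05. A fold change of low genes on this scale depends on the pseudocount and on single values near 0. Permutation tests were exact and two-sided. The 6 genes, the lists and the markers were chosen with earlier results of these data known. The genes named are the 6, Zmiz1 and Emx1, the called genes and up to 4 with the largest log2 fold change in each list, the relatives Pou3f4 and the other MEF2 genes, and the 3 nearest profiles of each of the 6. Some genes that this rule names are not reported here. Pde10a, Olig1 and Aqp4 were named as called markers. Gene models were from GENCODE (M21) and promoters from RefSeq. The procedure was also run on simulated counts with the same spread setting for all genes and no shared library effects. That run cannot test the calls made here. Alternatives were other scalings, filters and pseudocounts, limma-voom, fits without robust estimation or trend, an Xist covariate, a block by replicate number, and fits without each library. Marker covariates and scaling to glutamatergic markers were added after the data were seen.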

Additional observations from a re-analysis of the deposited data

How the results depend on the processing

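Over 21 alternatives for each of the 6 genes, 122 of 126 log2 fold changes were under 0. The other 4 came from marker covariates, with the interneuron sum for Cux1 (0.0067), Pou3f1 (0.042) and Mef2c (0.061) and with the striatal sum for Pou3f1 (0.0029). Cux2 passed with at least 10 in every library (-0.25, limma adjusted p = 0.0477), and over the alternatives that kept all libraries and used no markers its adjusted p ran from 0.0101 to 0.469. Pou3f2 no longer passed with limma-voom (-0.27), without robust estimation (-0.27) or trend (-0.27), with the interneuron (-0.23) or striatal (-0.23) covariate, or scaled to glutamatergic markers (-0.27, limma adjusted p = 0.0707).

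The number of the 6 genes called was 2 with at least 10 in every library, and 0 with limma-voom, without robust estimation, without trend and in the 3 fits with markers. The number of all genes called was 18 with limma-voom, 17 without robust estimation, 0 without trend, and 4, 23 and 32 with the interneuron covariate, the striatal covariate and glutamatergic scaling.

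With each library left out in turn, log2 fold changes were -0.09 to -0.05 for Cux1, -0.31 to -0.20 for Cux2, -0.31 to -0.14 for Pou3f1, -0.28 to -0.26 for Pou3f2, -0.24 to -0.15 for Pou3f3 and -0.32 to -0.15 for Mef2c. Between 0 and 3 of the 6 were called (3 without wildtype replicate 2), and between 12 genes in all (without KO-labelled replicate 3) and 152 (without KO-labelled replicate 2). The change in each paralog difference between the groups varied as well. For Cux2 minus Cux1 it ran from -0.22 to -0.15, and for Pou3f2 minus Pou3f1 from -0.13 to 0.03. For Pou3f3 minus Pou3f1 it ran from -0.04 to 0.13, and for Pou3f3 minus Pou3f2 from 0.03 to 0.11. The sign of this change thus turned for the differences with Pou3f1. Pou3f2 minus Pou3f1 gave 0.010 without wildtype replicate 2 and 0.032 without KO-labelled replicate 3. Pou3f3 minus Pou3f1 gave -0.0075, -0.044 and -0.027 without wildtype replicate 3 and KO-labelled replicates 1 and 2.

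The replicate numbers are not stated to pair the libraries, and deviations of same-numbered libraries had correlations of -0.00509, -0.113 and -0.00627. With the replicate block, 4 of the 6 genes were called, with Cux2 at -0.25 (limma adjusted p = 0.0101), Pou3f3 at -0.19 (0.0440) and Mef2c at -0.23 (0.00848) in addition to Pou3f2, and 168 genes in all. Of the other lists, 1 CUT-domain gene, 1 POU partner, 4 upper-layer and callosal genes and 2 deep-layer genes were called with the block, and 1 POU partner was called without wildtype replicate 2. The causes of these changes were not tested. The standard errors of the 6 log2 fold changes, 0.043 to 0.097, set how small a difference 3 libraries per group could resolve.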
